A study of Homo sapiens with 36 samples.

Results

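Human chromosome 19 carries the densest array of zinc finger genes in the genome. A total of 197 protein-coding genes on this chromosome whose symbol is ZNF followed by a number were selected by position, gene type and name from the deposited RNA table, which lists 21797 genes. The table also lists 244 such ZNF genes on other chromosomes and 872 other protein-coding genes on chromosome 19. RNA was measured in UM-SCC-1, an established cell line of head and neck squamous carcinoma origin. The cells carried 1 of 2 shRNAs against ALKBH5, 1 of 2 shRNAs against RBM33, or a scramble shRNA, and each target has a scramble group of its own. All groups, the scramble groups included, were infected with retrovirus and kept in 10 ug/mL blasticidin for 4 days. The groups are ALKBH5 shRNA-1 (2 libraries), ALKBH5 shRNA-2 (2), ALKBH5 scramble (3), RBM33 shRNA-1 (2), RBM33 shRNA-2 (3) and RBM33 scramble (3). The titles call the agents shRNAs and the design text calls them siRNAs. The labels do not say whether replicates are separate cultures, and the p-values then reflect only how these libraries vary, which may be technical.

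N6-methyladenosine (m6A) is a methyl mark on adenosines inside RNA that the enzyme ALKBH5 can remove, and RBM33 binds RNA and is known as a partner of ALKBH5. Most genes of the chromosome 19 array encode KRAB zinc finger proteins: a string of C2H2 fingers reads a DNA sequence, and a KRAB box recruits the corepressor KAP1 (the product of TRIM28), which brings histone methyltransferases and heterochromatin proteins to that site. Many of these proteins bind and silence retroelements, and the genes arose by tandem duplication, so neighbours resemble each other in sequence. Their messages are known to be short-lived and rich in m6A. The comparisons ask how the RNA and the m6A of these genes differ when ALKBH5 or RBM33 is targeted.

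Libraries held 4493849 to 6733017 reads in listed genes, and 1 read was worth 0.143 to 0.22 CPM (reads scaled to a common total by the authors). The ALKBH5 transcript was at 75.1 to 89.6 CPM in the ALKBH5 shRNA libraries, against 109 to 132 CPM in their scramble libraries. Its log2 change was -0.53 (limma adjusted p = 9.1e-05). The RBM33 transcript was at 191 to 214 CPM in the libraries labelled RBM33 shRNA and at 207 to 227 CPM in their scramble libraries. The groups overlap, and the log2 difference of -0.10 did not pass the test (limma adjusted p = 0.27), so directions in the RBM33 set rest on the labels. Of 8 squamous epithelial markers 3 have a row in the table, namely DSP at a mean of 192 CPM, PERP at 56.9 CPM and SFN at 0.886 CPM. SFN thus lay below the mean of 1 CPM needed for testing, at 0.162 to 3.63 CPM in single libraries. Rows for KRT5, KRT14, KRT6A, KRT17 and TP63 were not analysed here. The squamous label was checked on these 3 markers only, and the squamous origin rests on the name of the cell line.

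The chromosome 19 ZNF genes were expressed at low levels. Their mean over the 15 libraries ranged from 0.516 to 278 CPM with a median of 11.8 CPM, the middle 50% lay between 5.77 and 19.1 CPM, and a member had a median of 65 reads in a library. Only 7 of 197 members exceeded 50 CPM. A total of 189 members reached the mean of 1 CPM needed for testing. The other 8 were ZNF439, ZNF563, ZNF208, ZNF793, ZNF781, ZNF285, ZNF813 and ZNF418, whose highest value in any library was 2.83 CPM. The tested members had a median of 12.8 CPM, against 15.8 CPM over all 18227 genes tested. The median SE of a log2 change was 0.19 for tested members and 0.17 for all tested genes in the ALKBH5 comparison.

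Per kilobase of merged exon, the highest level belonged to ZNF146 (67.2 CPM per kb, 278 CPM), which encodes a protein made almost wholly of zinc fingers and without a KRAB box. ZNF121 followed with 25.8 CPM per kb (187 CPM), ZNF460 with 20.9 CPM per kb (83.7 CPM), ZNF428 with 18.6 CPM per kb (29.0 CPM) and ZNF302 with 9.62 CPM per kb (48.4 CPM). ZNF146 alone supplied 7.10% to 9.84% of the members' summed CPM over the 15 libraries.

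Many promoters of these genes hold a short sequence that the selection did not use. RefSeq promoter windows (GRCh38.p14, 250 bases before to 50 after a transcript start) matched 175 of the 197 members and gave 221 windows. The letters CCGGAAG, the core bound by ETS factors, were found on either strand in 88 windows (39.8%). The same letters occur in 29.5% of the windows of ZNF genes on other chromosomes, in 16.2% of those of other protein-coding genes on chromosome 19 and in 10.3% of all 35116 windows. Of the 99 matches 86 lay within 100 bases of the transcript start, with a median of 18 bases upstream of it. CCGGAAG occurs in 14.8% of the 16987 windows of all protein-coding genes that are not members. CCAAT was found in 48.9% of member windows, 39.1% of windows of ZNF genes on other chromosomes and 34.3% of non-member protein-coding windows. GGGCGG was found in 61.5% of member windows, 59.04% of windows of ZNF genes on other chromosomes, 74.8% of windows of other protein-coding genes on chromosome 19 and 63.6% of non-member protein-coding windows. TGACGTCA was found in 4.52% and TATAAA in 2.71% of member windows, against 2.57% and 6.99% of non-member protein-coding windows. All motifs were searched on both strands, and none of them contains another. A match is a description of letters and not of a bound site. Among members that the results below turn on, the listed windows of ZNF317, ZNF146 and ZNF350 hold no match and are not printed. The windows of 4 such members with a match are printed 5′ to 3′ on the gene's strand with each match in capitals: ZNF587B (chr19:57830049-57830348, plus strand), ZNF274 (chr19:58182811-58183110, plus strand), ZNF460 (chr19:57279732-57280031, plus strand, 1 of 2 windows listed) and ZNF582 (chr19:56393485-56393784, minus strand).
ZNF587B: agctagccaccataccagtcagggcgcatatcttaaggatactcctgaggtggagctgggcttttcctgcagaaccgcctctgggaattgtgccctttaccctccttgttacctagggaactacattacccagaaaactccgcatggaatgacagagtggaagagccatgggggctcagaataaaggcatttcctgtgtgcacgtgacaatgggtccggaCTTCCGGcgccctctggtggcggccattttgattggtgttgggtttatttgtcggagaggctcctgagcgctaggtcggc
ZNF274: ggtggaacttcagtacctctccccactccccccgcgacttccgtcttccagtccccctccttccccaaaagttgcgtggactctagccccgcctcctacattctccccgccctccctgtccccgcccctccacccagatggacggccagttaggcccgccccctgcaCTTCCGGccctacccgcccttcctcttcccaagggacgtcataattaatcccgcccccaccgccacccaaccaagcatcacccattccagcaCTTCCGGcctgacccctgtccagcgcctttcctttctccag
ZNF460: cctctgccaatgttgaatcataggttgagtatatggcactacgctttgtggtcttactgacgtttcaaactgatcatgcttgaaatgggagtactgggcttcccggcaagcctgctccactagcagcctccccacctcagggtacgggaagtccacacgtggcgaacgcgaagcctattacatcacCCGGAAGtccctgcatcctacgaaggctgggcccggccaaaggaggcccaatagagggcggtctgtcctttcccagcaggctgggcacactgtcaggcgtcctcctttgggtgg
ZNF582: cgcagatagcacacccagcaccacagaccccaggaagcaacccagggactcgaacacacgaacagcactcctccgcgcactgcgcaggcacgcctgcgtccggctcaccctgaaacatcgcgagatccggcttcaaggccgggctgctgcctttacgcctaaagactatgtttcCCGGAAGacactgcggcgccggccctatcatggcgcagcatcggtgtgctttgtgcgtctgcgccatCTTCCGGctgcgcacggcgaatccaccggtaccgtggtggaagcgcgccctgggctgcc
The single match of ZNF587B begins 30 bases and that of ZNF460 begins 64 bases upstream of the start. ZNF274 has matches that begin 83 bases upstream and 9 bases downstream of it, and ZNF582 has matches that begin 76 and 9 bases upstream. CCGGAAG was present in 5 of the 10 ALKBH5-called and 6 of the 14 RBM33-called members with a window, against 81 of 168 tested members with a window.

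As a share of all listed CPM, the summed level of the chromosome 19 ZNF genes was similar in 5 of the 6 groups and lower in the RBM33 scramble group. Their share of all listed CPM was 0.347% to 0.355% in ALKBH5 shRNA-1 libraries and 0.330% to 0.340% in ALKBH5 shRNA-2 libraries, against 0.337% to 0.346% in ALKBH5 scramble libraries. It was 0.333% to 0.355% in RBM33 shRNA-1 libraries and 0.333% to 0.340% in RBM33 shRNA-2 libraries, against 0.290% to 0.310% in RBM33 scramble libraries. In the ALKBH5 set the groups overlap, and in the RBM33 set every shRNA library lies above every scramble library. Without ZNF146 the RBM33 groups did not overlap either, with shares of 0.303% to 0.327% with the shRNAs and 0.263% to 0.279% with scramble. ZNF genes on other chromosomes also did not overlap, and held 0.765% to 0.834% of listed CPM with the RBM33 shRNAs and 0.701% to 0.723% with scramble.

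**Figure D1:**
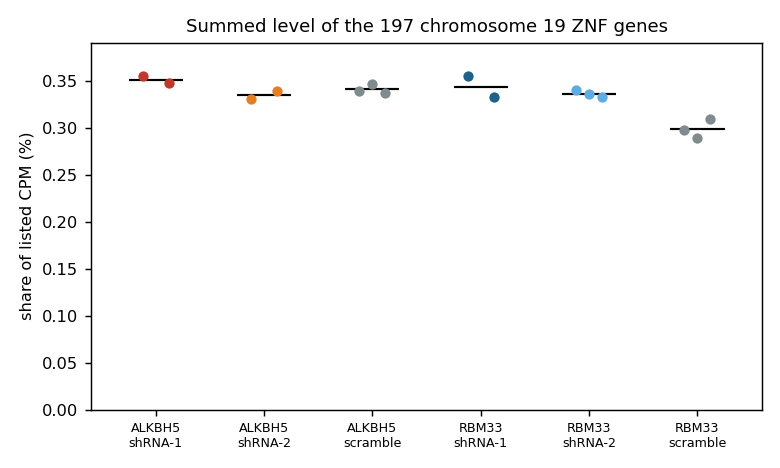
Share of listed CPM held by the 197 chromosome 19 ZNF genes (y axis, percent) in each of 15 libraries (points) by group (x axis), with the group mean as a line. The RBM33 scramble libraries lie at 0.290% to 0.310%, below all libraries of the other 5 groups, which lie at 0.330% to 0.355%.

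In the ALKBH5 comparison few chromosome 19 ZNF genes were called, and in both directions. Over both shRNAs 8 of 189 tested members were higher and 3 lower (limma adjusted p under 0.05), or 5.82%, against 15.1% of all 18227 genes tested (7.93% higher and 7.18% lower). The highest rises belonged to ZNF582, ZNF574 and ZNF317, and the falls were in ZNF83, ZNF714 and ZNF146, the most abundant member. Among ZNF genes on other chromosomes 13.7% were called, and among other protein-coding genes on chromosome 19 17.7%. At an unadjusted limma p under 0.05, 34 members passed, against 5170 of the 18227 genes tested. The median log2 change of the 189 was 0.04, against 0.01 over all genes tested, and 111 were positive (58.7%, against 50.6%). Values that did not overlap between shRNA and scramble libraries were seen in 33 members, among them 10 of the 11 called, against 24.3% of all tested genes.

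ZNF317, a KRAB zinc finger gene (chr19:9140397-9163424, plus strand), had 54.0 and 51.8 CPM with shRNA-1 and 44.7 and 50.7 CPM with shRNA-2, against 35.8, 33.8 and 32.05 CPM in ALKBH5 scramble libraries. All 4 shRNA libraries were above all 3 scramble libraries. It rose by 0.55 (log2; SE 0.09, limma adjusted p = 0.00025), and each shRNA passed alone with 0.63 and 0.48. ZNF587B (chr19:57819721-57846238, plus strand) had 47.3 and 34.1 CPM with shRNA-1 and 34.8 and 37.6 CPM with shRNA-2, against 26.4, 28.7 and 25.3 CPM in ALKBH5 scramble libraries. Its groups do not overlap, and it rose by 0.49 (SE 0.12, limma adjusted p = 0.0057). These calls held when any single library was left out. ZNF587B resembles its neighbour ZNF587 and ZNF417 in sequence, and the sources used here do not say how shared reads were counted. ZNF587 itself had 36.8 to 40.3 CPM with the ALKBH5 shRNAs against 41.5 to 45.2 CPM in scramble libraries, a log2 difference of -0.13 that did not pass (limma adjusted p = 0.37).

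ZNF582, a KRAB gene whose promoter methylation is used as a marker in oral and cervical cancer, had 8.46 and 5.65 CPM with shRNA-1 and 4.59 and 6.74 CPM with shRNA-2, against 2.91, 3.23 and 3.20 CPM in ALKBH5 scramble libraries. The groups do not overlap, and it rose by 0.81 (SE 0.25, limma adjusted p = 0.031). ZNF574 had 19.6 and 18.96 CPM with shRNA-1 and 18.1 and 18.1 CPM with shRNA-2, against 10.97, 13.98 and 11.3 CPM in ALKBH5 scramble libraries. It rose by 0.60 without overlap (SE 0.16, limma adjusted p = 0.014). The other 4 that rose were ZNF428 (0.53, with overlapping libraries), ZNF845 (0.52), ZNF551 (0.45) and ZNF649 (0.42), with limma adjusted p between 0.022 and 0.038. For ZNF428 the authors' deposited DESeq2 table gave log2 fold changes of -0.14 with shRNA-1 and 0.02 with shRNA-2. Their edgeR table gave 0.48 and 0.60, and none of these passed.

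ZNF146 (chr19:36214602-36238771, plus strand) had 243 and 272 CPM with shRNA-1 and 254 and 245 CPM with shRNA-2, against 298, 317 and 284 CPM in ALKBH5 scramble libraries. All 4 shRNA libraries were below the scramble libraries, and it fell by 0.24 (log2; SE 0.07, limma adjusted p = 0.024). ZNF714 had 52.8 and 58.5 CPM with shRNA-1 and 42.6 and 46.6 CPM with shRNA-2, against 68.4, 59.3 and 68.1 CPM in ALKBH5 scramble libraries, and fell by 0.38 (SE 0.11, limma adjusted p = 0.02). ZNF83 had 25.2 and 20.2 CPM with shRNA-1 and 21.2 and 23.9 CPM with shRNA-2, against 32.6, 28.0 and 30.2 CPM in ALKBH5 scramble libraries, and fell by 0.40 (SE 0.12, limma adjusted p = 0.026). The groups of both genes are apart.

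The count rests on the scramble libraries: without ALKBH5 scramble replicate 1, 2 or 3 it was 3, 7 or 4 in place of 11. Only ZNF317 and ZNF587B were called under every single-library omission and every other setting tried. Among 11 markers of leukocytes, endothelium, fibroblasts and melanocytes 7 have a row (PTPRC, CD68, VWF, COL1A1, COL1A2, PDGFRB and PMEL), none at 0 in all libraries of a group. Their summed level was 32.1 to 36.9 CPM with the ALKBH5 shRNAs and 26.04 to 30.9 CPM with scramble, and PMEL was the one called of the 5 tested, at 6.16 to 8.41 CPM against 0.685 to 3.77 CPM (log2 change 1.36, limma adjusted p = 0.0054). The part of these markers in the results was not tested. In these bulk samples fewer cells of a type and less RNA per cell cannot be told apart.

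**Figure D2:**
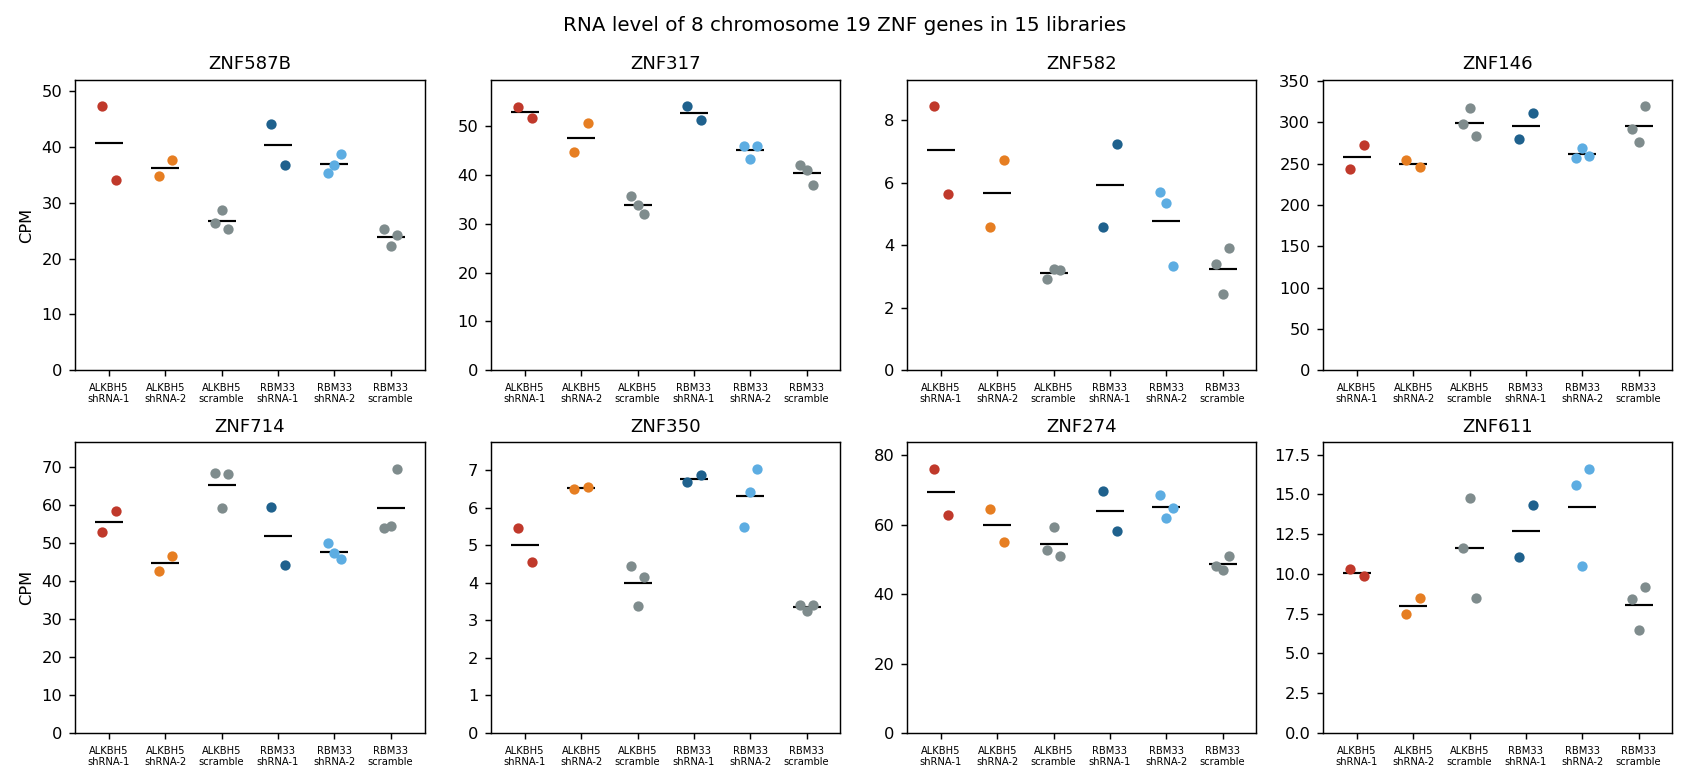
CPM (y axis, from 0) of 8 chromosome 19 ZNF genes in 15 libraries (points) by group (x axis, shRNA groups left of their scramble group), with group means as lines. ZNF587B is above scramble with both targets' shRNAs, ZNF146 and ZNF714 are below scramble with the ALKBH5 shRNAs, and ZNF350, ZNF274 and ZNF611 are above scramble with the RBM33 shRNAs.

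In the RBM33 comparison every chromosome 19 ZNF gene that was called was higher. Over both shRNAs 16 of 189 tested members rose and 0 fell (8.47%), against 8.5% of all tested genes called higher, 9.25% called lower and 17.7% called in all. The share that rose was that of the background, while no member was called lower. Without RBM33 shRNA-1 replicate 1 there were 13 rises and 2 falls, and with a gene length trend removed 18 rises and 1 fall. At an unadjusted p under 0.05, 41 members passed. Over all tested members, the 16 called included, 136 of 189 log2 changes were positive (72.0%), with a median of 0.15, against 48.5% and a median of -0.01 over all genes tested. ZNF genes on other chromosomes had 65.0% positive with a median of 0.10, and other protein-coding genes on chromosome 19 had 43.9% positive with a median of -0.05. Members whose shRNA and scramble libraries did not overlap numbered 28, the 16 called among them, against 22.4% of all tested genes.

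ZNF350 encodes ZBRK1, a KRAB repressor known as a partner of BRCA1. It had 6.67 and 6.88 CPM with shRNA-1 and 5.496, 6.41 and 7.03 CPM with shRNA-2, against 3.39, 3.23 and 3.41 CPM in RBM33 scramble libraries. All 5 shRNA libraries were above all 3 scramble libraries, and it rose by 0.79 (log2; SE 0.20, limma adjusted p = 0.0082). ZNF587B had 44.0 and 36.7 CPM with shRNA-1 and 35.4, 36.7 and 38.7 CPM with shRNA-2, against 25.2, 22.3 and 24.2 CPM in RBM33 scramble libraries. It rose by 0.67 without overlap (SE 0.11, limma adjusted p = 0.0002), and each shRNA passed alone with 0.73 and 0.61.

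ZNF274, a KRAB and SCAN domain protein, is known to bind the 3′ ends of zinc finger genes and to recruit the methyltransferase SETDB1 there. It had 69.8 and 58.3 CPM with shRNA-1 and 68.6, 61.9 and 64.9 CPM with shRNA-2, against 48.0, 46.9 and 50.9 CPM in RBM33 scramble libraries. Its groups do not overlap, and it rose by 0.40 (SE 0.09, limma adjusted p = 0.0042), with 0.39 for shRNA-1 and 0.41 for shRNA-2. ZNF350, ZNF587B and ZNF274 were called under every single-library omission and every other setting tried. In the authors' deposited values for RBM33 shRNA-1 and shRNA-2, ZNF350 did not pass (DESeq2 adjusted p = 0.27 and 0.20, edgeR adjusted p = 0.062 and 0.063). There ZNF274 passed by edgeR (adjusted p = 0.027 and 0.0052) but not by DESeq2 (adjusted p = 0.098 and 0.13). In the ALKBH5 comparison ZNF274 had a log2 difference of 0.35 with shRNA-1 and 0.14 with shRNA-2, and neither passed.

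ZNF230 and ZNF234 lie in one cluster at chr19:43596392-45076587. ZNF230 had 9.15 and 10.3 CPM with shRNA-1 and 7.69, 8.97 and 9.38 CPM with shRNA-2, against 4.69, 4.37 and 7.15 CPM in RBM33 scramble libraries, and rose by 0.69 (SE 0.20, limma adjusted p = 0.019). ZNF234 had 19.4 and 18.5 CPM with shRNA-1 and 14.5, 17.1 and 24.8 CPM with shRNA-2, against 10.5, 10.4 and 12.9 CPM in RBM33 scramble libraries, and rose by 0.69 (SE 0.18, limma adjusted p = 0.009). Neither gene's groups overlap. The other 11 rises were in ZNF611 (0.67), ZNF440 (0.55), ZNF780B (0.52), ZNF320 (0.51), ZNF776 (0.51), ZNF559 (0.48), ZNF649 (0.44), ZNF266 (0.35), ZNF507 (0.33), ZNF317 (0.27) and ZNF562 (0.26), with limma adjusted p from 0.017 to 0.043. ZNF266 and ZNF562 are named beyond the naming rule, after their values were seen, so that the 16 are complete. ZNF559 overlaps the listed readthrough gene ZNF559-ZNF177, with which reads may be shared.

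The RBM33 count was 8 without RBM33 shRNA-1 replicate 2, 9 without RBM33 scramble replicate 1 and 6 without RBM33 scramble replicate 2, in place of 16. The summed level of the 7 markers of other cell types was 21.2 to 32.3 CPM with the RBM33 shRNAs and 29.3 to 32.3 CPM with scramble, and none of those tested was called (the lowest limma adjusted p was 0.052, for PMEL at a log2 difference of -0.87). Their part in the results was not tested.

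Each shRNA alone called fewer members, and comparisons within a target share their scramble libraries. ALKBH5 shRNA-1 had 5 members higher and 0 lower, against 8.53% of all genes tested (5.05% higher, 3.48% lower), among them ZNF829 (0.92), named after its value was seen, which was not called over both shRNAs. ALKBH5 shRNA-2 had 3 higher and 4 lower, against 10.1% (5.06% higher, 5% lower). RBM33 shRNA-1 had 11 higher and 0 lower, against 10.9% (5.62% higher, 5.27% lower), but 2 higher and 1 lower without its replicate 1. RBM33 shRNA-2 had 8 higher and 0 lower, against 13.7% (6.44% higher, 7.27% lower). By the authors' deposited edgeR tables, counts of 6, 2, 11 and 7 members were higher and 0, 1, 0 and 0 lower for ALKBH5 shRNA-1, ALKBH5 shRNA-2, RBM33 shRNA-1 and RBM33 shRNA-2, against 7.32%, 7.61%, 9.97% and 11.6% of all genes. By the authors' deposited DESeq2 tables, counts of 5, 4, 4 and 5 were higher and 1, 3, 0 and 0 lower, against 13.8%, 15.7%, 12.4% and 14% of genes. For ZNF587B the authors' deposited DESeq2 table gave log2 fold changes of 0.59, 0.58, 0.72 and 0.61 in the same order, all with an adjusted p under 0.05. Their edgeR table gave 0.61, 0.43, 0.76 and 0.63, where ALKBH5 shRNA-2 did not pass (edgeR adjusted p = 0.082).

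ZNF317, ZNF587B and ZNF649 rose in both comparisons, and are 27.3% of the 11 members called with ALKBH5 and 18.8% of the 16 called with RBM33. When each of the 15 libraries was left out in turn, ZNF587B was called every time in both comparisons. The RBM33 call of ZNF317 was lost in 7 of the 15 fits, and that of ZNF649 was lost in 5 with ALKBH5 and 3 with RBM33. ZNF649 is a KRAB gene. It had 21.1 to 29.2 CPM with the ALKBH5 shRNAs and 18.3 to 19.98 CPM with their scramble, and 20.9 to 29.0 CPM with the RBM33 shRNAs and 17.4 to 19.4 CPM with theirs. No member passed the test of the difference between the ALKBH5 and the RBM33 change: limma called 0 of 189, against 2.69% of all genes (2.01% higher, 0.686% lower), with 18 at an unadjusted p under 0.05, while edgeR called 1 and DESeq2 called 2. The lowest limma adjusted p was 0.058, for ZNF708, named after its value was seen (difference of log2 changes -0.66). ZNF611 followed at -0.98 (SE 0.28, limma adjusted p = 0.062). It had 7.45 to 10.3 CPM with the ALKBH5 shRNAs and 8.48 to 14.8 CPM with their scramble, and 10.5 to 16.6 CPM with the RBM33 shRNAs and 6.47 to 9.20 CPM with theirs.

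The scramble groups themselves differed slightly. ALKBH5 scramble against RBM33 scramble gave 0 called members of 189, against 2.48% of all genes (0.269% higher, 2.21% lower), with 9 at an unadjusted p under 0.05 by limma and 0 called by edgeR and by DESeq2. The median log2 difference of the members was 0.09, against 0.0028 over all genes tested, with 65.6% of members higher in ALKBH5 scramble. Whether the rises in the RBM33 set and this difference have a common source was not tested, and each RBM33 value contains its own scramble group.

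By position the members fall into 16 clusters, separated by gaps of more than 1000000 bases, and 178 of the 197 lie in 7 clusters of at least 10. With the RBM33 shRNAs the cluster at chr19:51571283-53580269, which holds ZNF350, ZNF611, ZNF320 and ZNF649, had a median log2 change of 0.30, with 22 of 26 tested members positive and 4 called. The cluster at chr19:7069703-9793180, with ZNF317, ZNF559, ZNF562 and ZNF266, had a median of 0.24, with 12 of 14 positive and 4 called. The cluster at chr19:11483427-12640098 had a median of -0.01, with 7 of 14 positive and 1 called (ZNF440). With the ALKBH5 shRNAs the same 3 clusters had medians of 0.02, 0.05 and -0.07. The largest cluster, 52 members at chr19:55476617-58481230, had a median of 0.11 with the ALKBH5 shRNAs and 0.14 with the RBM33 shRNAs, with 3 members called in each. With the RBM33 shRNAs 0 were called at chr19:19668796-24129968 (15 of 19 tested positive, median 0.11) and chr19:36182276-37817300 (19 of 25, median 0.14). Over all genes tested 8.5% were called higher and 48.5% were positive with RBM33, and 7.93% were called higher with ALKBH5. Of all tested members 72.0% were positive with RBM33. Neighbouring members may share reads, so cluster medians are given as descriptions.

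**Figure D3:**
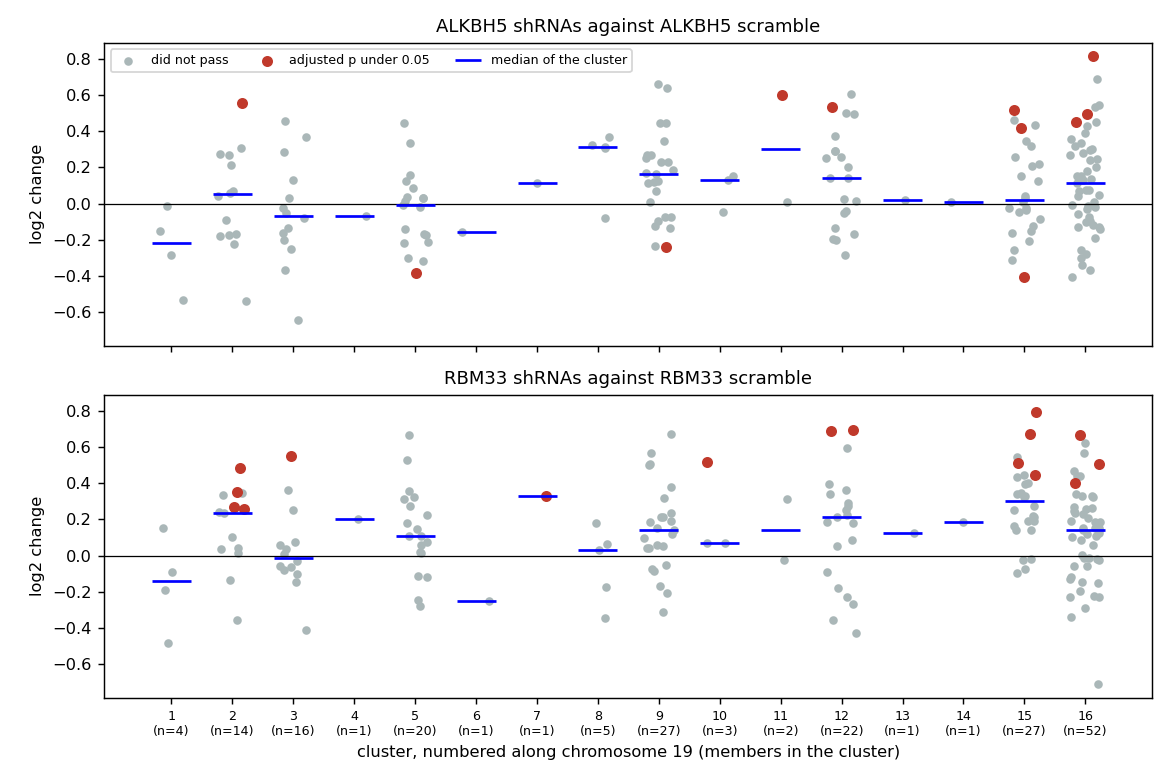
Log2 change (y axis) of each tested chromosome 19 ZNF gene (point) by positional cluster (x axis), for the ALKBH5 shRNAs above and the RBM33 shRNAs below. Called members are red and cluster medians are blue lines; all 16 red points below lie above 0, while the upper panel has 8 above and 3 below.

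Of 12 zinc finger genes listed for their known binding to retroelements, 9 were members and tested, and ZNF93, ZNF534 and ZNF808 were not analysed here. With the RBM33 shRNAs 3 rose (ZNF611, ZNF320 and ZNF649) and 0 fell, 8 of 9 log2 changes were positive, and the median was 0.40. All 3 that rose lie in the cluster at chr19:51571283-53580269, where 22 of 26 tested members were positive, with a median of 0.30. Neighbours there may share reads. The shares over all genes tested were 8.5% called higher, 9.25% called lower and 48.5% positive, and 72.0% of all tested members were positive. With the ALKBH5 shRNAs ZNF649 rose, ZNF146 fell, 3 of 9 were positive, and the median was -0.13, beside 7.93% of all genes tested called higher, 7.18% called lower and 50.6% positive. ZNF91, which silences SVA elements, had 7.26 to 13.1 CPM with the ALKBH5 shRNAs and 7.07 to 10.7 CPM with scramble, and 7.69 to 11.8 CPM with the RBM33 shRNAs and 8.41 to 10.2 CPM with scramble. Its log2 differences of 0.16 and 0.11 did not pass (limma adjusted p = 0.69 and 0.77). The other members of the list did not pass in either comparison: ZNF765 (-0.26 with ALKBH5, 0.40 with RBM33), ZNF525 (0.22 and 0.45), ZNF417 (-0.06 and 0.33) and ZNF587 (-0.13 and 0.12).

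The partners through which KRAB proteins repress were measured beside them, as a list of 36 tested corepressor genes. With the ALKBH5 shRNAs 6 rose and 1 fell, beside 7.93% of all genes tested called higher and 7.18% called lower. TRIM28 itself had 200.4 to 251 CPM with the ALKBH5 shRNAs and 168 to 194 CPM with scramble, and rose by 0.27 (limma adjusted p = 0.016). The others that rose were DAXX (0.29), EHMT1 (0.41), EHMT2 (0.27), SUMO2 (0.35) and SUMO3 (0.29). CBX5, which encodes heterochromatin protein 1 alpha, fell by 0.47 (limma adjusted p = 1.7e-05), at 297 to 338 CPM with the ALKBH5 shRNAs and 427 to 447 CPM with scramble. With the RBM33 shRNAs 6 rose, beside 8.5% of all genes tested called higher, namely ATF7IP (0.29), EHMT1 (0.39), EHMT2 (0.46), GATAD2A (0.31), HDAC1 (0.39) and MBD3 (0.32). CBX5 fell by 0.46 (limma adjusted p = 9.3e-06). The list medians were -0.01 with ALKBH5 and 0.11 with RBM33. SETDB1 did not pass in either comparison.

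The m6A of the chromosome 19 ZNF genes is known here only from the authors' deposited tables of differential peaks, shRNA against scramble. Listed peaks have an absolute natural-log effect of at least 0.5 and a low p-value. The authors' highest listed p-value was 0.0060 for ALKBH5 shRNA-1, 0.0083 for ALKBH5 shRNA-2, 0.00068 for RBM33 shRNA-1 and 0.0011 for RBM33 shRNA-2. The ALKBH5 and RBM33 tables thus end at unlike p-values, and shares from them are not directly comparable between the targets. These tables hold no value for single m6A libraries, and the spread between m6A replicates is therefore unknown. A total of 441 peaks in 407 windows over the 4 tables carry the name of a member, spread over 150 of the 197. The authors' deposited tables list a peak in 48.1% of tested members for ALKBH5 shRNA-1, against 32.6% of tested genes, and in 66.1% against 38.2% for ALKBH5 shRNA-2. For RBM33 shRNA-1 the shares were 5.82% against 7.94%, and for RBM33 shRNA-2 12.7% against 11.5%. ZNF genes on other chromosomes had a listed peak in 58.5%, 68.4%, 11.97% and 18.8% in the same order of tables, higher than the chromosome 19 members in each. Tested members with a peak in an ALKBH5 table had a median of 15.5 CPM, and those without had 5.77 CPM. In the RBM33 tables the medians were 16.6 CPM and 11.4 CPM. The part of the expression level in these shares was not tested.

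Fewer of the members' listed changes were positive than over all peaks in 3 of the 4 tables. In the authors' deposited table for ALKBH5 shRNA-2, 129 of 250 member peaks (51.6%) had a positive effect, more m6A with the shRNA, against 72.5% of all 19251 peaks, 60.8% of those of ZNF genes on other chromosomes and 82.8% of those of other protein-coding genes on chromosome 19. In the authors' deposited table for ALKBH5 shRNA-1 the share was 68.4% of 152, against 64.7% of all peaks and 58.8% of those of ZNF genes on other chromosomes. For RBM33 shRNA-1 it was 75% of 12, against 87.6% of all peaks and 67.6% of those of ZNF genes elsewhere. For RBM33 shRNA-2 it was 66.7% of 27, against 87.5% and 79.7%. Other protein-coding genes on chromosome 19 had 52.7% positive with ALKBH5 shRNA-1, below the members. They had 93.75% with RBM33 shRNA-1 and 96.9% with RBM33 shRNA-2, above the members. Of the 107 members with at least 2 listed peaks, 67 had peaks of both signs.

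The sign of the listed changes varied along the gene. Of the member peaks in the authors' deposited tables, 65.5% lay in the 3′ part of the gene span (a relative position of at least 0.667, with 0 at the start and 1 at the end), where KRAB zinc finger genes carry the long exon that encodes the fingers. By table the share was 61.8%, 67.6%, 66.7% and 66.7% for ALKBH5 shRNA-1, ALKBH5 shRNA-2, RBM33 shRNA-1 and RBM33 shRNA-2, against 50.6%, 55.5%, 59.3% and 58.3% of the peaks of all genes. For ALKBH5 shRNA-2, 43.2% of the 169 peaks there were positive, against 69.1% of the 81 peaks elsewhere in the gene. For ALKBH5 shRNA-1 the shares were 61.7% of 94 and 79.3% of 58. For RBM33 shRNA-1 they were 75% of 8 and 75% of 4, and for RBM33 shRNA-2 50% of 18 and 100% of 9. Over all genes in the authors' deposited tables the same split gave 69.7% and 76.7% for ALKBH5 shRNA-2, and 65.0% and 65.0% for ALKBH5 shRNA-1. For RBM33 shRNA-1 it gave 89.1% and 86.9%, and for RBM33 shRNA-2 87.3% and 88.3%. Peaks of 1 gene are not independent, so no test is given. Positions are on the gene span with introns, 41 peaks split over exons are placed at the middle of their span, and exon or UTR positions were not analysed here.

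**Figure D4:**
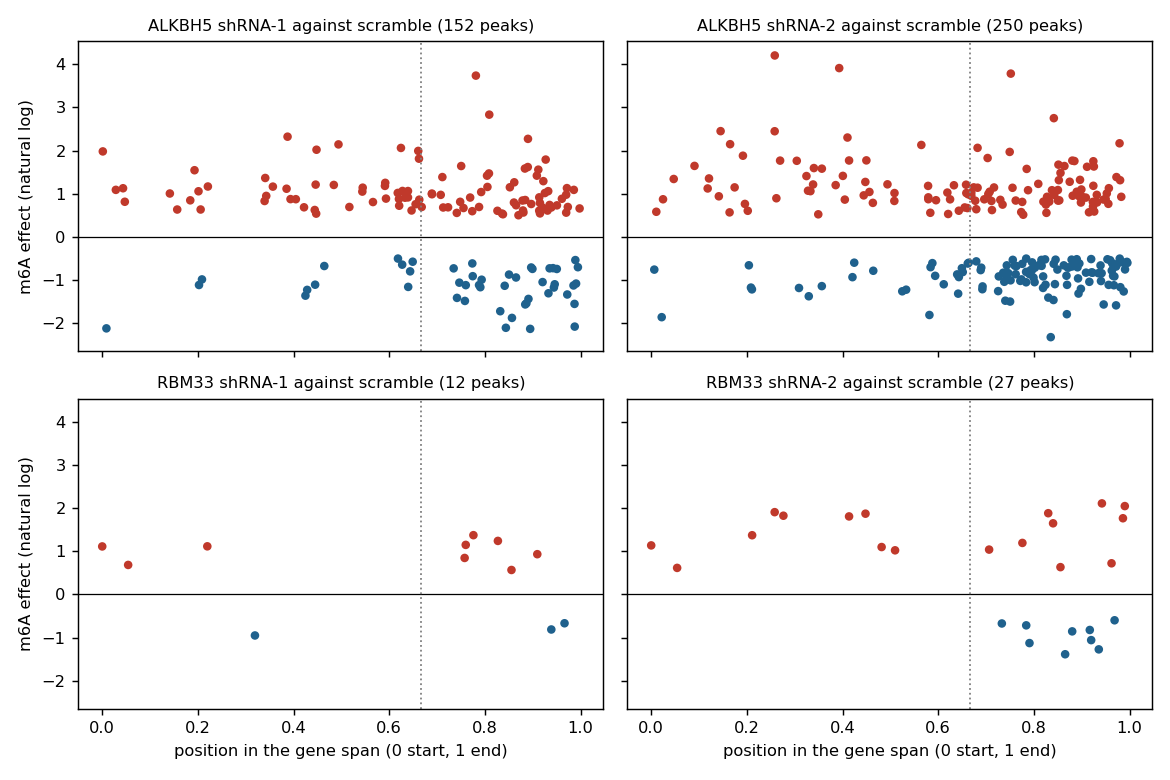
Natural-log m6A effect (y axis) of each listed peak in chromosome 19 ZNF genes by position in the gene span (x axis, 0 start and 1 end), in the authors' 4 tables, with positive effects red and negative effects blue. The dotted line at 0.667 marks the start of the 3′ part, which holds most negative peaks for both ALKBH5 shRNAs; the empty band around 0 is the tables' limit of 0.5.

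ZNF460 had the most listed peaks of all members, 18 over all 4 of the authors' deposited tables, of which 17 were positive. They lie near the start and in the 3′ part of the gene, with split peaks between (chr19:57280051-57294069, plus strand). Near the start, the window chr19:57280635-57280684 had an effect of 1.13 with ALKBH5 shRNA-1, its neighbour chr19:57280685-57280734 had 1.34 with ALKBH5 shRNA-2, and chr19:57280785-57280834 had 0.68 with RBM33 shRNA-1 and 0.62 with RBM33 shRNA-2. Toward the end, chr19:57292020-57292069 had 0.57 and 0.63 with the RBM33 shRNAs in the authors' deposited tables. The largest effect, 2.30 with ALKBH5 shRNA-2, is a peak split over exons at chr19:57280835-57290769. The one negative peak lay nearest the gene's end. Its RNA did not pass in either comparison (limma adjusted p = 0.26 and 0.10), at 68.2 to 87.9 CPM with the ALKBH5 shRNAs against 84.8 to 89.1 CPM with scramble, and 80.0 to 95.7 CPM with the RBM33 shRNAs against 77.1 to 78.4 CPM with scramble.

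**Figure D5:**
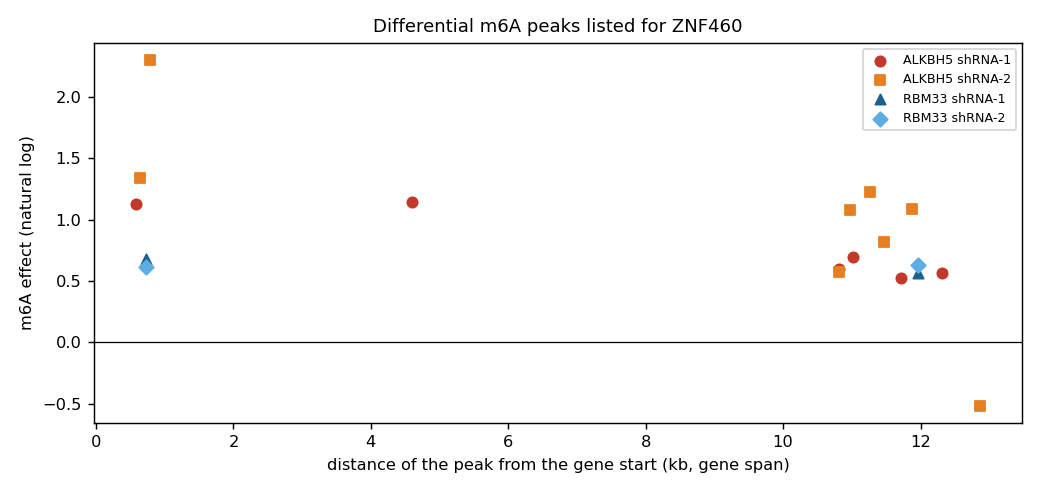
Natural-log m6A effect (y axis) of the 18 peaks listed for ZNF460 against the distance of the peak from the gene start (x axis, kb of gene span), by table (symbols). In all, 17 of the 18 lie above 0, between 0.52 and 2.30, and the single negative peak (-0.51) is the one farthest from the start.

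ZNF317, whose RNA rose with the ALKBH5 shRNAs, had 11 listed peaks in the authors' deposited tables, all in the 3′ part. The window chr19:9160695-9160794 had an effect of 1.58 with ALKBH5 shRNA-1, and windows at chr19:9160645-9160694 and chr19:9160745-9160794 had 1.77 and 1.76 with ALKBH5 shRNA-2. At chr19:9161295-9161344 the effects were 1.42 and 0.91. Closer to the end, 3 windows between 9162395 and 9163344 were negative with shRNA-2, from -1.11 to -0.60. In ZNF845, 2 windows were listed for both ALKBH5 shRNAs with the same sign, at -1.13 and -0.62 at chr19:53353209-53353258 and 1.15 and 1.31 at chr19:53353459-53353508.

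ZNF507 had 13 listed peaks, of which 10 were positive, and 8 of these began 7715 to 9265 bases into the gene. The window chr19:32353559-32353758 had 1.88 with ALKBH5 shRNA-2 in the authors' deposited table, and chr19:32354809-32354858 had 1.12 with RBM33 shRNA-1. ZNF274 had 8 listed peaks of both signs. Its last window, chr19:58213368-58213417, was negative with both ALKBH5 shRNAs, at -0.70 and -0.58, while chr19:58212668-58212717 upstream of it had 1.13 with ALKBH5 shRNA-1. Its most negative effect and its one listed RBM33 peak was -1.13 with RBM33 shRNA-2, at chr19:58207150-58207199. The similar neighbours ZNF324 and ZNF324B differed in sign in the authors' deposited tables: 7 of 8 listed peaks of ZNF324 were positive and 6 of 7 of ZNF324B were negative. ZNF780A had 5 negative of 7. ZNF543 had 6 positive of 7, ZNF805 had 6 positive of 9 and ZNF426 had 3 of 6.

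The largest effects in the authors' deposited tables were 3.74 for ZNF570 (chr19:37484017-37484066) and 2.83 for ZNF780B with ALKBH5 shRNA-1. With ALKBH5 shRNA-2 they were 4.20 for ZNF805, 3.91 for the readthrough gene ZNF559-ZNF177 and 3.78 for ZNF112. With the RBM33 shRNAs the largest were 1.37 for ZNF471 with shRNA-1, and 2.11 for ZNF816 and 2.05 for ZNF581 with shRNA-2. Exactly the same window was listed in a table of each target for 5 members. For ZNF587, chr19:57856145-57856194 had 1.77 with ALKBH5 shRNA-2 and 1.81 with RBM33 shRNA-2. For ZNF772, chr19:57474405-57475106 had 2.45 and 1.91 in the authors' deposited tables of the same shRNAs, for ZNF805, chr19:57262013-57262062 had -0.66 and -0.60, and for ZNF536, chr19:30445625-30445674 had 2.02 with ALKBH5 shRNA-1 and 1.87 with RBM33 shRNA-2. For ZNF57 the signs differed, with 0.68 for ALKBH5 shRNA-1 and -0.81 for RBM33 shRNA-1.

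The authors' deposited tables of methylated shares list 2 members. For ZNF146 a peak split over 2 exons at chr19:36215152-36218126 had a share of 0.584 with ALKBH5 shRNA-1 and 0.252 with scramble (the authors' adjusted p = 0.0133). For ZNF121 a peak at chr19:9566903-9567052 had 0.933 with ALKBH5 shRNA-2 and 0.857 with scramble (the authors' adjusted p = 0.0694). No member is listed in the authors' deposited tables of methylated shares for RBM33.

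RNA changes and listed peaks were set side by side. Of the 11 members called with the ALKBH5 shRNAs 10 had a peak in an ALKBH5 table, against 76.2% of the 189 tested members, and of the 16 called with the RBM33 shRNAs 2 had a peak in an RBM33 table, against 16.4%. ZNF582 was the called member without one in the ALKBH5 tables. The median log2 RNA change was 0.03 for members with a listed ALKBH5 peak and 0.14 for those without, and 0.14 and 0.16 for members with and without a listed RBM33 peak. ZNF146 had less RNA with the ALKBH5 shRNAs. It had 5 listed peaks, 3 with ALKBH5 shRNA-1 and 2 with ALKBH5 shRNA-2, all positive (0.68 to 1.21). Its methylated share was higher with ALKBH5 shRNA-1, the one table of shares that lists it. ZNF317 had more RNA and listed peaks of both signs.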

How the data were processed

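RNA-seq and m6A-seq of UM-SCC-1 cells are labelled in 12 groups (36 samples). The RNA table deposited by the authors is a normalized signal: CPM whose columns do not sum to 1 fixed total. It covers 15 of the 18 RNA-seq libraries, and the other 3 were not analysed here. The submitters' processing notes name cutadapt 1.18 for trimming, HISAT2 2.1.0 with hg38, Subread 1.6.4 (featureCounts), edgeR 3.24.3 and DESeq2, with no strand setting. Per the file headers, the authors' comparison tables hold a log2 fold change and an adjusted p-value for each gene. The m6A tables deposited by the authors hold a natural log effect and a p-value for each peak, or a methylated share as a fraction. No source used here names the peak caller, and effects and shares were not recomputed. Levels per kb used the gene length that the authors deposited.

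Whole reads were recovered from the CPM (100% of values within 0.1 read of a whole number). The main test was limma 3.58.1 under R 4.3.3, with a trended prior, on log2(CPM + 1). All 6 groups entered together, for the 18227 genes averaging 1 CPM or more, and p-values were Benjamini-Hochberg adjusted over all of them. A gene was called under 0.05. Changes on this scale understate those of low genes. Alternatives were edgeR 4.0.16 and DESeq2 1.42.0 on the recovered reads, other filters and pseudocounts, a replicate block, rescaled libraries, removal of a gene length trend, a fit of the compared groups only and single-library omissions. The fit was also run on simulated counts with the same spread for every gene. The changed genes there averaged at least 5 CPM, so that run does not cover members below this level. Replicates differed by more than sampling noise (chi-square per degree of freedom 3.03 to 9.09).

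Members named are up to 10 called rises and 10 called falls without overlap in each comparison, the 5 highest per kb, those with the most or the largest m6A peaks, and the retroelement list; the corepressor genes are named where called, except for a result that is not reported here. The members and lists were chosen with earlier results of these data known.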

Additional observations from a re-analysis of the deposited data

How the results depend on the processing

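Over both shRNAs, settings that keep all libraries called 11 to 15 members with ALKBH5 and 13 to 22 with RBM33. Leaving out 1 library at a time gave 3 to 13 with ALKBH5, 6 to 17 with RBM33, 1 to 7 with ALKBH5 shRNA-1, 2 to 7 with ALKBH5 shRNA-2, 2 to 12 with RBM33 shRNA-1, 3 to 9 with RBM33 shRNA-2, 0 to 2 for the difference between the targets and 0 to 0 between the scramble groups. The lowest counts came without ALKBH5 shRNA-1 replicate 1, ALKBH5 scramble replicates 1 and 2, and RBM33 scramble replicates 1 and 2. ALKBH5 shRNA-2 had 3 calls in a fit of its own groups and 3 with edgeR, in place of 7, and RBM33 shRNA-2 had 13 with library medians set equal, in place of 8. The difference between the targets had 2 calls with a mean of at least 5 CPM, 1 with library medians set equal, 1 with edgeR and 2 with DESeq2, in place of 0. The median log2 change with ALKBH5 was 0.060 without a filter and 0.063 with a length trend removed, in place of 0.043, and 0.036 to 0.072 with a library left out. With RBM33 it was 0.192 with medians set equal and 0.177 with DESeq2, in place of 0.152, and 0.128 to 0.172 with a library left out. The cause of these shifts was not tested. No direction reversed.

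No pairing by replicate number was seen: over 12 same-numbered pairs the correlation of deviations from the group means ran from -0.0761 to 0.0735. In groups of 2 libraries the deviations mirror each other, so these values are not independent. They cannot show that same-numbered libraries are unpaired. With a replicate block 11 members were called with ALKBH5 and 13 with RBM33 in place of 16. There were 3 with ALKBH5 shRNA-1 in place of 5 and 3 with ALKBH5 shRNA-2 in place of 7. Depth limits the low members: 3 reads correspond to 0.430 to 0.659 CPM, a counting floor only.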
